A study of Cyanidioschyzon merolae strain 10D with 6 samples.

Results

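The plastid genome of the red alga Cyanidioschyzon merolae carries genes for the protein complexes that capture light and move electrons and protons across the photosynthetic membrane. The members described here are the plastid genes whose name in the deposited annotation begins with psa, psb, apc, cpc, pet or atp. They number 34, of 207 plastid genes and 4984 genes in all. They comprise 5 genes of photosystem I (psa), 14 of photosystem II (psb), 8 of photosynthetic electron transport (pet) and 7 of the ATP synthase (atp). No gene name began with apc or cpc, so no member belongs to the phycobilisome. A further 20 plastid genes of the same complexes, among them all 8 apc and cpc genes, are named only on their transcript lines. They are described beside the members, a set added after the annotation was read.

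Poly(A) RNA was sequenced from 3 samples of wild type 10D and 3 of Cme(z)-1, a single mutant line of the same strain made to lose function of Polycomb Repressive Complex 2 (PRC2). The catalytic subunit of that complex, E(z), places a repressive methyl mark on nuclear histones, and the study asked what changes in RNA without it. All cultures grew at 42 °C in acidic liquid medium (pH 2.5 to 3.0) under continuous white illumination (80 µmol/m2/s). The labels do not state whether replicates came from separate cultures. The p-values therefore reflect only how far these libraries scatter, and that scatter may be technical. The libraries held 7860491 to 10754544 counts. The E(z) gene CMQ156C had 1533 to 1776 counts in the wild-type libraries and 0 in each mutant library. Plastid genes took 0.862%, 0.843% and 1.01% of all counts in wild-type replicates 1, 2 and 3, and 1.11%, 1.13% and 0.789% in mutant replicates 1, 2 and 3. Mutant replicate 3 thus had the lowest plastid share of the 6 libraries and the other mutant replicates the highest.

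Photosystem II takes electrons from water, the cytochrome b6f complex passes them on, and photosystem I lifts them to the energy needed to reduce ferredoxin. The protons moved on the way drive the ATP synthase. In red algae the main antenna of photosystem II is the phycobilisome, whose parts include allophycocyanin (apc) and phycocyanin (cpc). Plastid genes lie outside chromatin, on DNA without histones, and neighbouring genes are often transcribed together. Stable poly(A) tails are not typical of plastid messengers. The values below therefore describe the plastid RNA that passed a poly(A) selection, and how evenly the selection took up different transcripts was not tested.

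No member passed the test for a difference between mutant and wild type. Of 34 members, 32 had enough counts to be tested, and 0 were called higher and 0 lower. The call was an adjusted p under 0.05 by the quasi-likelihood test of edgeR over 7641 genes and copies of transposable elements (TEs). Of those 7641, 3.4% were called higher and 1.54% lower in the mutant, and of the genes alone 1.29% and 1.83%. At an unadjusted p under 0.05, 3 members were higher and 0 lower, against 9.27% and 8.23% of genes and TE copies and 5.51% and 9.68% of genes alone. DESeq2 and limma voom called 0 members as well, with 3 and 1 members under an unadjusted p of 0.05. The shares over all genes were not counted for these methods, so those numbers stand without a comparison. In DESeq2 psbD and psbA lay just above the threshold, at adjusted p of 0.0515 and 0.0575. The lowest adjusted p of a member in limma voom was 0.22, for psb28. The median log2 fold change of the 32 members was 0.064, beside 0.27 over the 135 other plastid genes tested and -0.031 over all tested genes. For 25 of the 32 the 95% interval of the change lay within a 2-fold rise and a 2-fold fall. For the other 7 it reached beyond 2-fold on at least 1 side.

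The direction of many small changes depended on whether the libraries were scaled on plastid genes. With CPM, read counts brought to a common library size, and sizes scaled by TMM, which takes most genes and TE copies as unchanged, 24 members had positive and 8 negative log2 fold changes. When the libraries were instead scaled on plastid genes, 10 were positive and 22 negative, with a median of -0.087. That scaling takes most plastid genes, the members among them, as unchanged, so it centres plastid changes near 0. On the TMM scale the members' median lay below that of the other plastid genes (0.064 and 0.27). With total counts alone and with scaling on nuclear genes, 27 members were positive and 5 negative. Scaling on plastid genes moved the median of all genes from -0.031 to -0.17. Without mutant replicate 3 the members' median on the TMM scale became 0.24, and psbA and psbD were called higher.

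**Figure D1:**
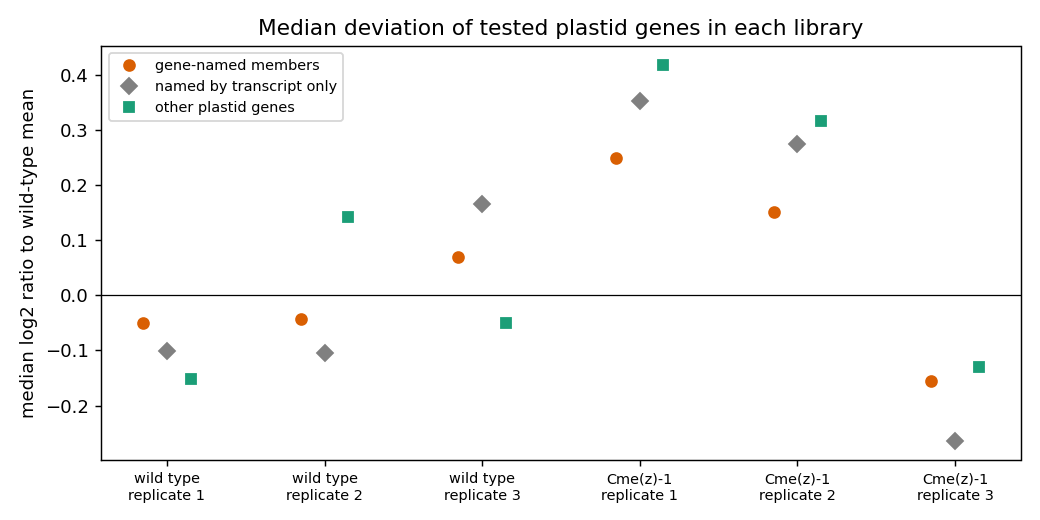
Median over tested genes of the log2 ratio of CPM to the wild-type mean, with 0.5 CPM added to both, for each of the 6 libraries. The members (circles) stood at 0.25 and 0.15 in mutant replicates 1 and 2 and at -0.16 in mutant replicate 3, on the same side of 0 as the other plastid genes in these 3 libraries.

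The libraries differed among themselves along the same line. Of the 34 members, mutant replicate 3 was the lowest of the mutant libraries for 26 and the highest for 0. In it 25 members lay below the wild-type mean. In mutant replicate 1, 29 members lay above that mean, and in mutant replicate 2, 26 did. The other plastid genes showed the same order, with 113 of 153 lowest in mutant replicate 3. The coefficient of variation between replicates had a median over members of 20.2% in wild type and 26.2% in the mutant. The part of the plastid share of each library in these values was not tested. In bulk RNA fewer plastids and less RNA per plastid cannot be told apart.

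Wild-type levels of the members spanned 517-fold when expressed as CPM per kilobase of coding length, the scale on which genes of different length are set side by side. The median was 38.0 CPM per kb, beside 8.98 for the 153 other plastid genes. By this measure 28 of 34 members lay above the median plastid gene, and 8 were among the 20 highest plastid genes. Counts were concentrated in few members. The 6 with the highest CPM (petB, petD, petJ, psbV, psaA and petM) took 73.7% to 77.5% of all member counts in every library. Members as a whole took 30.8% ± 3.37 of plastid gene counts in wild type and 33.4% ± 1.36 in the mutant (SD, n = 3 each). Of all counts they took 0.277% ± 0.0119 and 0.339% ± 0.0726. Their chosen membership gives these shares no test.

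**Figure D2:**
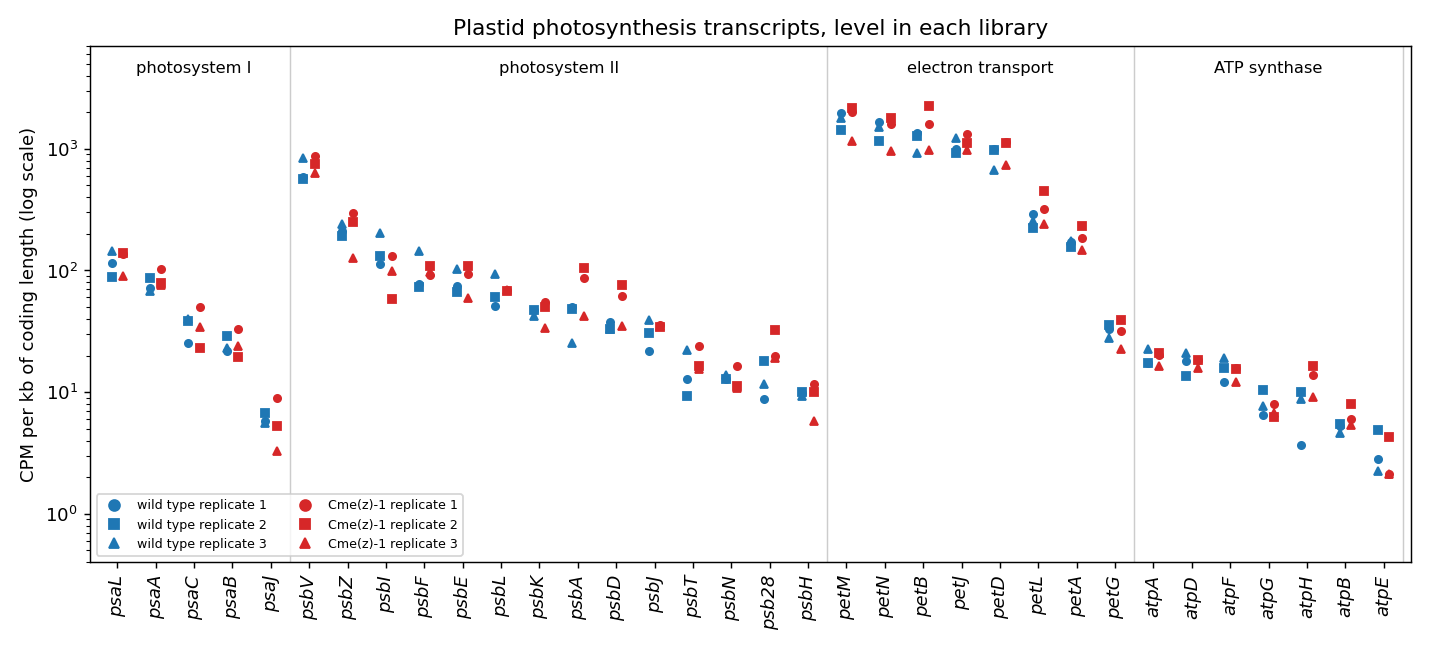
CPM per kb of coding length on a log scale for each of the 34 members in each library, grouped by complex and ordered by wild-type mean (blue, wild type; red, Cme(z)-1; circles, squares and triangles are replicates 1, 2 and 3). Wild-type means run from 1720 for petM to 3.33 for atpE, and the groups are separate for psb28 alone.

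Electron transport genes stood highest. Their median wild-type level was 966 CPM per kb, beside 43.6 for photosystem II, 34.6 for photosystem I and 8.20 for the ATP synthase. The sum of the 8 pet genes was 1991 ± 196 CPM in wild type and 2375 ± 669 CPM in the mutant (SD, n = 3 each). Mutant replicate 2 held the highest sum, 2955 CPM, and mutant replicate 3 the lowest of all 6 libraries, 1643 CPM. The groups overlapped.

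The genes petB and petD encode cytochrome b6 and subunit IV, the membrane core of the cytochrome b6f complex. They lie on the plus strand of the plastid at 60392 to 61036 and 61049 to 61528 (build ASM9120v1, 1 coding exon each, as for every member), 12 bases apart. In the wild type petB had 872, 828 and 593 CPM in replicates 1 to 3, and in the mutant 1028, 1445 and 631 CPM. Mutant replicate 2 stood above every other library, and mutant replicate 3 lay within the wild-type range. The log2 fold change was 0.44 (SE 0.28, adjusted p = 0.49) and fell to 0.12 without mutant replicate 2. The levels of petD were 478, 472 and 323 CPM in wild type and 550, 531 and 350 in the mutant, and the groups overlapped (log2 fold change 0.17, SE 0.21, adjusted p = 0.76; -0.014 when scaled on plastid genes). Together petB and petD held 41.9% ± 7.07 of member counts in wild type and 44.6% ± 4.80 in the mutant.

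The other large subunit of that complex is cytochrome f, encoded by petA (97971 to 98870, minus strand). It had 154, 140 and 159 CPM in wild type and 166, 207 and 134 in the mutant. Again replicate 2 of the mutant was highest and replicate 3 lowest of the 6 libraries, and the change did not pass (log2 fold change 0.16, SE 0.15, adjusted p = 0.66; -0.011 when scaled on plastid genes). Small subunits of the complex are encoded by petG, petL, petM and petN. The overlapping pair petM and petN (93246 to 93341 and 93341 to 93433, minus strand) had the highest levels per length of all members, 1720 ± 281 and 1443 ± 248 CPM per kb in wild type and 1781 ± 539 and 1454 ± 442 in the mutant. They rank at places 2 and 3 of the 207 plastid genes. These genes are 96 and 93 bases long and share 1 base, and the unnamed gene CMV146C beside petM stood at a like wild-type level of 1150 CPM per kb. Reads reach past genes this short, so their levels per length and the split between them are uncertain.

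The gene petL was at 255 ± 32.3 CPM per kb in the wild type, and petG was lowest of the group at 32.2 ± 3.83. The spread among small subunits of 1 complex was thus wide, while neither gene passed the test. Their log2 fold changes were 0.40 (SE 0.24) for petL and -0.056 (SE 0.32) for petG. Soluble cytochrome c6, which carries electrons from the cytochrome complex to photosystem I, is encoded by petJ (126566 to 126877, plus strand). It had 310, 289 and 382 CPM in wild type and 412, 351 and 303 in the mutant, with overlapping groups (log2 fold change 0.12, SE 0.15, adjusted p = 0.76; -0.041 when scaled on plastid genes).

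Photosystem II held the members with the largest positive and negative changes. Its 14 genes summed to 496 ± 75.3 CPM in wild type and 597 ± 127 in the mutant. Here psbV, for an extrinsic cytochrome of the water-splitting side, was highest, at 667 ± 154 CPM per kb in wild type and 746 ± 120 in the mutant, and psbH was lowest, at 9.69 ± 0.425 and 9.17 ± 2.99. The log2 fold change of psbV was 0.16 (SE 0.18, adjusted p = 0.71), and -0.0011 when scaled on plastid genes.

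The reaction centre of photosystem II is a pair of related proteins encoded by psbA and psbD. The psbA gene (29483 to 30562, plus strand) had 54.2, 52.5 and 27.3 CPM in wild-type replicates 1 to 3 and 94.5, 114 and 45.8 CPM in the mutant. Mutant replicates 1 and 2 stood above every wild-type library, while mutant replicate 3 lay among them. The log2 fold change was 0.92 (SE 0.35, 95% interval 0.13 to 1.71), the largest of the members, with an unadjusted p of 0.027 and an adjusted p of 0.20. The psbD gene (52516 to 53568, plus strand) had 39.4, 34.8 and 34.9 CPM in wild type and 65.0, 79.7 and 36.9 in the mutant. Its pattern was the same, with mutant replicate 3 inside the narrow wild-type range. The log2 fold change was 0.73 (SE 0.25, interval 0.17 to 1.30, unadjusted p = 0.017, adjusted p = 0.16). Without mutant replicate 3 the changes were 1.22 (adjusted p = 0.039) for psbA and 0.99 (adjusted p = 0.0082) for psbD. With each of the other libraries left out neither passed, at adjusted p from 0.21 to 0.43. With all libraries scaled on plastid genes, the changes were 0.71 for psbA and 0.53 for psbD, at adjusted p of 0.13 and 0.29 in edgeR.

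The gene after psbD is psbC, which encodes a core antenna protein of photosystem II and is named only by transcript. It starts 14 bases before the end of psbD, on the same strand. It had 16.8, 18.5 and 18.8 CPM in wild type and 30.2, 27.3 and 23.0 in the mutant. All 3 mutant libraries lay above the wild-type ones, as they did for 8.12% of tested genes and for psbY, also named by transcript. The change of psbC did not pass in edgeR (log2 fold change 0.57, SE 0.17, adjusted p = 0.11). DESeq2 gave an adjusted p of 0.036. The level per kb of psbD was 2.09 to 3.80 times that of psbC over the 6 libraries.

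Among the members, the groups were separate only for psb28 (57693 to 58019, plus strand), which encodes a protein that in cyanobacteria binds photosystem II during its assembly and repair. It had 2.89, 5.90 and 3.79 CPM in wild type and 6.50, 10.6 and 6.25 in the mutant. The lowest mutant library lay just above the highest wild-type library. The log2 fold change was 0.89 (SE 0.36, unadjusted p = 0.034, adjusted p = 0.23) on 26 to 88 counts per library. Mutant values stood wholly above the wild type in this 1 member and wholly below in 0, while over all tested genes and TE copies the shares were 12.1% and 11.1% and over genes alone 8.12% and 12.8%. The largest negative change was that of psbI (147197 to 147310, minus strand), a small reaction-centre subunit. It had 12.8, 15.02 and 23.1 CPM in wild type and 14.9, 6.65 and 11.2 in the mutant. Mutant replicate 2 was lowest and wild-type replicate 3 highest, and the groups overlapped (log2 fold change -0.63, SE 0.34, adjusted p = 0.39). Scaled on plastid genes, the changes were 0.74 for psb28 and -0.76 for psbI, at adjusted p of 0.36 and 0.23 in edgeR.

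**Figure D3:**
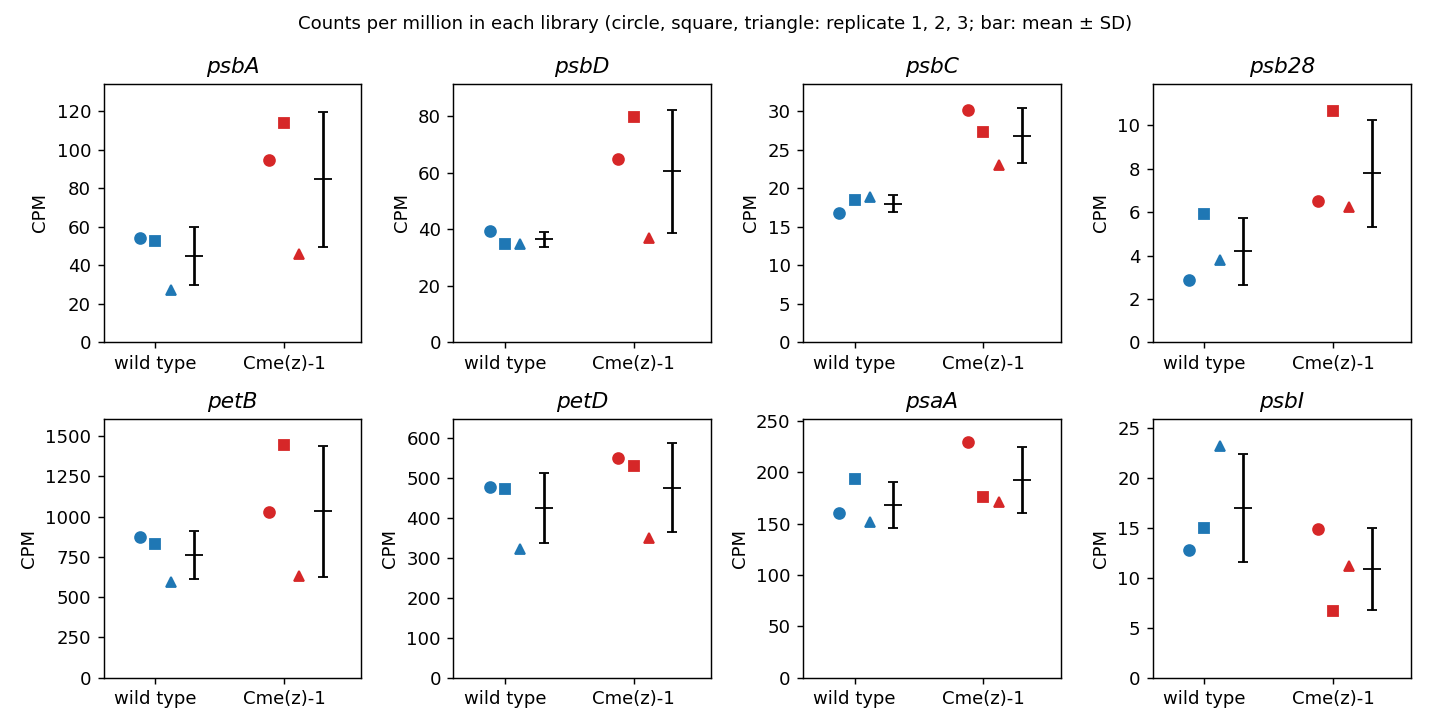
CPM in each library for 7 members and psbC, with the group mean and SD as a black bar (circles, squares and triangles are replicates 1, 2 and 3). In psbA, psbD, petB and petD mutant replicate 3 lies within the wild-type range while mutant replicates 1 and 2 lie above it.

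The remaining photosystem II members are small subunits. The 4 genes psbE, psbF, psbL and psbJ follow each other on the minus strand (142220 to 142883), and psbE and psbF encode the cytochrome of the complex. In the direction of transcription their wild-type levels were 81.0 ± 19.4, 98.3 ± 40.8, 68.2 ± 22.2 and 30.5 ± 8.53 CPM per kb. In the mutant they were 86.9 ± 24.9, 98.8 ± 9.04, 68.6 ± 0.666 and 35.0 ± 0.802. The last gene of the cluster was lowest in both groups, and the differences between groups were small beside the spread: psbE had a log2 fold change of 0.099 (SE 0.27), or -0.089 when scaled on plastid genes. Across the genome psbT, psbN and psbH follow each other at 82441 to 82914 on alternating strands, and each had 7 to 25 counts per library. Without strand in the library, reads of psbN, which in land plants is needed to assemble the complex, cannot be told from reads running through from its neighbours.

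Photosystem I was represented by 5 members. The genes psaA and psaB encode the reaction-centre pair and lie 7 bases apart on the plus strand (86350 to 88593 and 88601 to 90796). The psaA gene had 160, 194 and 151 CPM in wild type and 229, 176 and 171 in the mutant, where replicate 1 was highest and the groups overlapped (log2 fold change 0.19, SE 0.14, adjusted p = 0.57). The psaB gene had 47.9, 63.2 and 50.7 CPM in wild type and 72.2, 42.6 and 52.9 in the mutant. It too had overlapping groups (0.055, SE 0.20, adjusted p = 0.93), and its value turned to -0.085 when scaled on plastid genes. The proteins are needed in equal number, yet psaA RNA exceeded psaB RNA in each library, by 2.92-fold to 4.04-fold per kb. The highest ratio was that of mutant replicate 2.

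The other members of photosystem I are psaC, which holds the iron-sulfur clusters that pass electrons to ferredoxin, and the small subunits psaL and psaJ. Of these psaL (144394 to 144813, plus strand) was highest of all 5 per length, at 116 ± 27.5 CPM per kb in wild type and 122 ± 27.5 in the mutant (log2 fold change 0.070, SE 0.22; -0.12 when scaled on plastid genes). The level of psaC was 34.6 ± 8.21 CPM per kb in wild type and 35.8 ± 13.9 in the mutant. The gene psaJ had 4 to 11 counts per library and was not tested. All 4 tested psa members had log2 fold changes from 0.055 to 0.19, with intervals inside 2-fold both ways.

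ATP synthase genes were the lowest complex, with a sum of 58.5 ± 6.91 CPM in wild type and 60.3 ± 8.13 in the mutant. The 5 members atpH, atpG, atpF, atpD and atpA stand in a row on the plus strand (138529 to 141691), at the end of a run of 11 genes that starts with ribosomal and RNA polymerase genes. The first encodes the proton-carrying ring subunit, atpG and atpF the stalk that joins membrane and head, atpD the delta subunit, and atpA the alpha subunit of the catalytic head. Wild-type levels rose along the row, at 7.51 ± 3.39, 8.20 ± 2.05, 15.7 ± 3.59, 17.5 ± 3.66 and 19.2 ± 3.10 CPM per kb. Among wild-type neighbours in this order the levels did not differ beyond their spread except for atpG and atpF, of which atpF was higher in 6 of 6 libraries, mutant ones included. In the mutant the levels were 13.1 ± 3.65, 6.98 ± 0.927, 14.5 ± 2.14, 17.5 ± 1.41 and 19.1 ± 2.46.

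The order of means along the row differed between groups at 1 point, where atpH lay above atpG in 3 of 3 mutant libraries. The ratio of atpH to atpG per kb was 0.565, 0.958 and 1.15 in wild type and 1.72, 2.65 and 1.37 in the mutant, so the ratios of the groups did not overlap. This ratio was singled out after its values were seen, rests on 8 to 37 counts per gene and library, and was not tested. Ratios were also computed for other adjoining pairs, and in each of those the groups overlapped. Counts of atpH were 8, 19 and 17 in wild type and 36, 33 and 24 in the mutant, or 0.889, 2.44 and 2.15 against 3.34, 3.99 and 2.24 CPM. For atpH by itself mutant replicate 3 lay below wild-type replicate 2, so the groups overlapped, and the change did not pass (log2 fold change 0.81, SE 0.44, interval -0.19 to 1.80, adjusted p = 0.40). For atpG the log2 fold change was -0.22 (SE 0.32) and for atpA -0.0081 (SE 0.18, interval -0.41 to 0.39), the latter turning to 0.044 when scaled by total counts alone and to 0.043 when scaled on nuclear genes. On the minus strand atpB and atpE, for the beta and epsilon subunits of the head, share 1 base (120439 to 122231). The beta subunit is needed in the same number as alpha, but atpB stood at 5.11 ± 0.461 CPM per kb in wild type and 6.46 ± 1.39 in the mutant, below atpA in all 6 libraries. The log2 fold change of atpB was 0.33 (SE 0.25, adjusted p = 0.56). The gene atpE had 7 to 15 counts per library and was not tested.

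**Figure D4:**
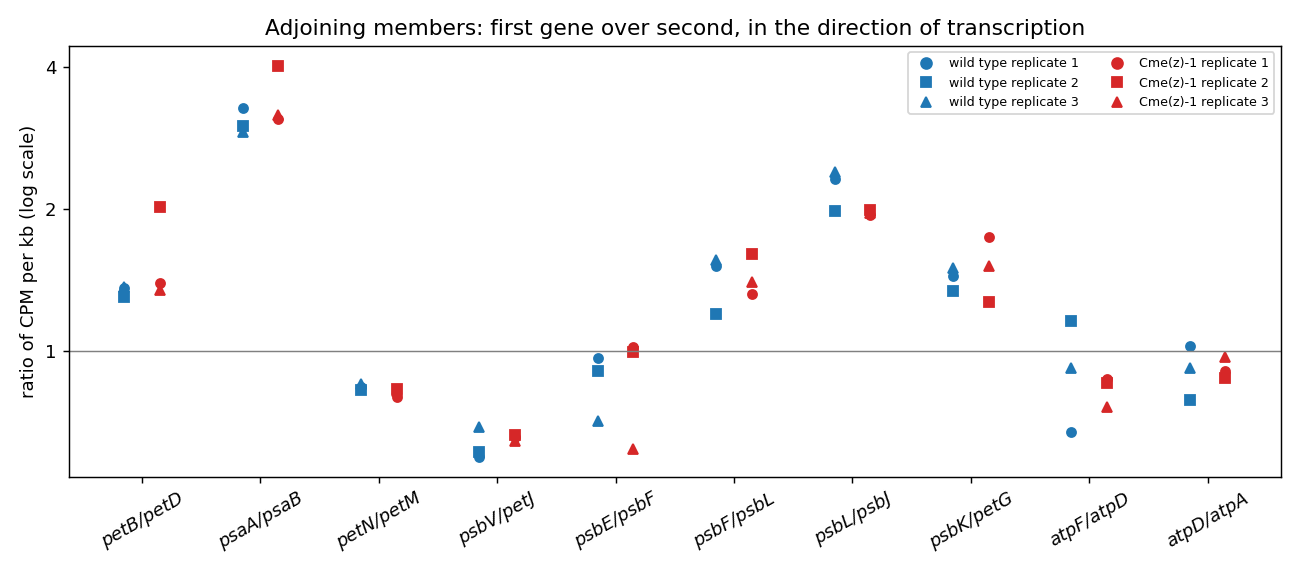
Ratio of CPM per kb of the first to the second of 2 adjoining members, for selected pairs in the direction of transcription. Each library is shown on a log scale (blue, wild type; red, Cme(z)-1; circles, squares and triangles are replicates 1, 2 and 3). The pairs atpH/atpG (0.565 to 2.65), atpB/atpE (1.12 to 2.81) and atpG/atpF are not plotted. The ratio psaA/psaB lies between 2.92 and 4.04 and petN/petM between 0.799 and 0.852, and mutant replicate 2 stands above the other libraries for petB/petD and psaA/psaB.

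Some neighbouring members kept a narrow ratio across libraries. In all, 27 of the 34 stand directly next to another member on either strand. Runs of same-strand genes with gaps of at most 100 bases hold 29 of the 34 members and 167 of all 207 plastid genes, and 21 members share such a run with another member. The ratio of petB to petD per kb was 1.36, 1.30 and 1.37 in wild type and 1.39, 2.03 and 1.34 in mutant replicates 1, 2 and 3. Apart from mutant replicate 2 the ratio thus held within narrow bounds, although petB itself ranged from 593 to 1028 CPM in those 5 libraries. For petN over petM it was 0.838 ± 0.0132 in wild type and 0.817 ± 0.0163 in the mutant, and for psbV over petJ 0.632 ± 0.0512 and 0.654 ± 0.00890. These neighbours share libraries and partly share reads, so the ratios are given as a description.

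By position, the 2 members in the first 50 kb (psbA and psaC) had a median log2 fold change of 0.49, the 15 between 50 and 100 kb one of 0.059, and the 15 tested between 100 and 150 kb one of 0.070. The first value rests on psbA alone, since psaC was at 0.059. Highly and weakly represented genes lay side by side: between 50 and 100 kb wild-type levels ran from 9.69 to 1720 CPM per kb, and between 100 and 150 kb from 3.33 to 1048. The TE annotation touches 23 of the 34 members. The 18 TE copies involved held 21 to 67 counts per library, against 21469 to 39288 counts of the members themselves.

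**Figure D5:**
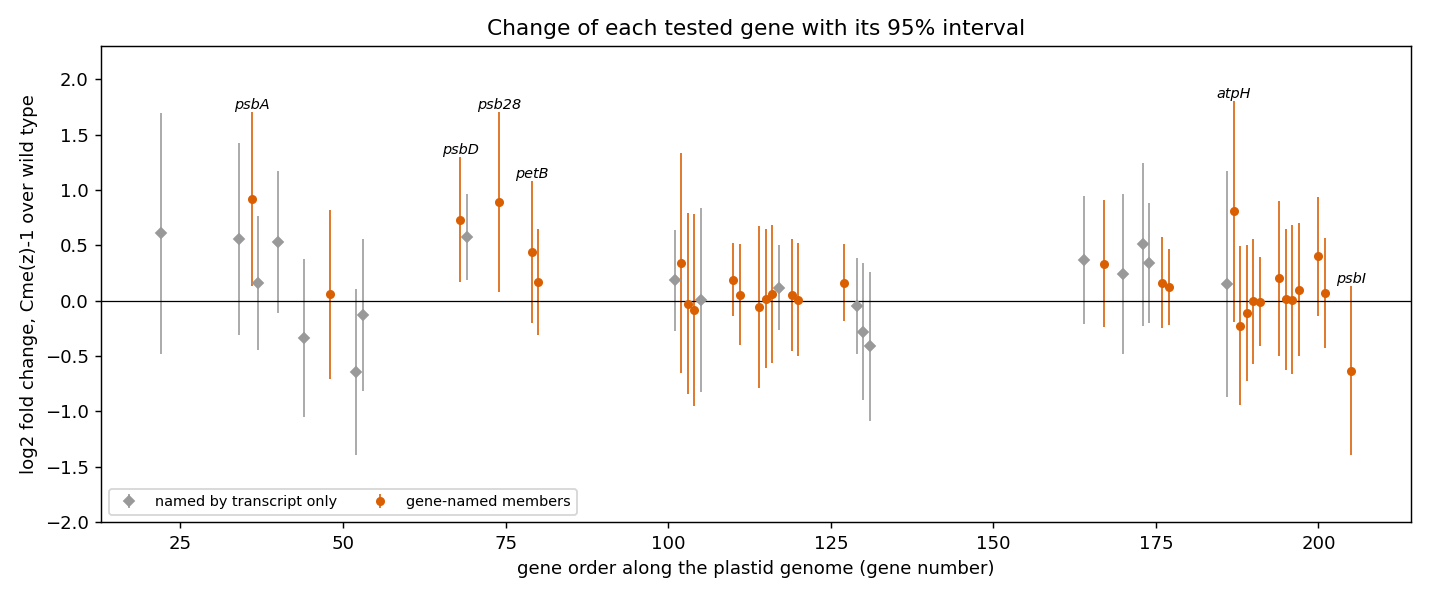
Log2 fold change of mutant over wild type with its 95% interval, against gene order on the plastid genome, for 32 tested members (orange circles) and 19 tested genes named by transcript only (grey diamonds). Intervals of the members psbA, psbD and psb28, and of psbC among the genes named by transcript, lie above 0 before adjustment. Those of all other genes shown include 0.

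The phycobilisome genes, all outside the members by name, gave no call either. The neighbours apcA and apcB encode the alpha and beta subunits of the allophycocyanin core. The apcA gene had 436, 447 and 785 CPM in wild type and 587, 460 and 327 in the mutant, and apcB had 403, 397 and 737 against 541, 326 and 290. Wild-type replicate 3 was highest and mutant replicate 3 lowest for both, with overlapping groups (log2 fold change -0.28, SE 0.27, for apcA and -0.41, SE 0.30, for apcB). Without wild-type replicate 3 the value of apcA was 0.051. At 1151 ± 411 and 1061 ± 402 CPM per kb in the wild type they stood beside petB and petJ, far above cpcA and cpcB, the 2 subunits of phycocyanin, at 17.0 ± 3.31 and 21.9 ± 4.08. The cpcA gene had 7.22, 7.45 and 10.1 CPM in wild type and 7.52, 4.72 and 3.54 in the mutant (log2 fold change -0.65, SE 0.33, adjusted p = 0.37). The phycobilisome genes did not share a direction. Log2 fold changes were positive for cpcG (0.53, SE 0.28), apcD (0.51, SE 0.32) and apcF (0.16, SE 0.27). They were -0.049 (SE 0.19) for apcE and -0.13 (SE 0.30) for cpcB. Of the 20 genes named by transcript, 19 were tested and 0 were called in either direction, with psbC alone under an unadjusted p of 0.05.

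Nuclear genes supply the rest of these complexes, but gene products are not given in the annotation used here, and 35 of 4743 nuclear genes carry a transcript name. A list of nuclear partners by product was therefore not analysed. By transcript name 2 nuclear genes, PSBO and ATPC, were looked up after the annotation was read. PSBO (CMI290C, chromosome 9, 762886 to 763875) encodes the protein that shields the water-splitting cluster. It had 3167, 3347 and 4018 CPM in wild type and 2807, 2741 and 2183 in the mutant. All mutant libraries lay below the wild type, as they did for 12.8% of tested genes. The change of PSBO did not pass in edgeR (log2 fold change -0.45, SE 0.18, adjusted p = 0.24). It passed in DESeq2 (adjusted p = 0.033), for which the share of all genes called was not counted. ATPC (CMQ087C, chromosome 17, 201830 to 202924), for the gamma subunit of the ATP synthase, had 664 ± 90.5 CPM in wild type and 652 ± 77.9 in the mutant (SD, n = 3 each). Its groups overlapped and the change did not pass (log2 fold change -0.025, SE 0.15, interval -0.36 to 0.31, adjusted p = 0.96 in edgeR).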

How the data were processed

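Per the submitters' processing notes reads were handled with Trim Galore and STAR. The program that counted reads is not given in the sources used here. Per the labels' protocols libraries were poly(A)-enriched and unstranded. The authors deposited raw whole-number read counts per gene and TE copy, 1 table per library, and annotations of build ASM9120v1, whose start and end positions, per the file headers, are coordinates and no measurement. Members were taken by gene name on the plastid; coding lengths are annotated gene lengths. Members, lists and named genes were chosen with earlier results of these data known. By rule the text names called members, a list of core and antenna subunits where they are members, in each complex the extremes of level and of change, and members too low to test; psb28, petL, petN, psbF, psbL, psbJ, psbT, psbN, atpD, the genes named by transcript, PSBO and ATPC were added outside the rule, after values were seen.

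Counts were tested with edgeR 4.0.16 (R 4.3.3): filterByExpr (minimum count 10, minimum total 15), TMM, glmQLFit and glmQLFTest, mutant against wild type, Benjamini-Hochberg adjusted over 7641 rows. Standard errors and 95% intervals were taken from the F statistic. The fit was run on simulated data as a check of the code. That check does not set how small a change in the members would have been found. No pair of replicates was a repeat of 1 library (chi-square over degrees of freedom from 17.0 to 35.2). Depth limits low members: 3 counts equal 0.279 to 0.382 CPM, counting error only. Alternatives were other scalings and filters, DESeq2 1.42.0, limma 3.58.1 voom, genes alone, a replicate block and each library left out.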

Additional observations from a re-analysis of the deposited data

How the results depend on the processing

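The count of members called lower was 0 under every alternative run, and that of members called higher was 0 except in 2 of them. It was 1 (psbA, log2 fold change 0.89, adjusted p = 0.0094) with the replicate number as a block, and 0 to 2 with 1 library left out, where the 2 were psbA and psbD without mutant replicate 3 (1.22 and 0.99). The numbers are not shown to pair the samples: same-numbered libraries correlated at 0.022, 0.135 and 0.259 in their deviations from group means. The members' median log2 fold change ran from 0.00096 to 0.24 with 1 library left out, the highest without mutant replicate 3.

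Scaled on plastid genes, values turned negative for petA (-0.011), petD (-0.014), petJ (-0.041), petM (-0.15), psaB (-0.085), psaL (-0.12), psbE (-0.089) and psbV (-0.0011). Direction was kept under that scaling for psbA (0.71), psbD (0.53), psb28 (0.74), psbI (-0.76), atpH (0.65) and petB (0.23). That of atpA turned positive with total counts alone (0.044), scaling on nuclear genes (0.043) and genes alone tested (0.013). With 1 library left out, values crossed 0 for atpA (-0.083 to 0.13), petA (-0.011 to 0.31), petG (-0.25 to 0.14), petM (-0.12 to 0.28), psaB (-0.17 to 0.21), psaL (-0.098 to 0.25), psbE (-0.086 to 0.31) and apcA (-0.50 to 0.051). None of these was called. PSBO passed in DESeq2 and, in edgeR, when scaled on plastid genes (-0.61, adjusted p = 0.011). The latter scaling moved the median of all genes to -0.17. When scaled on nuclear genes, PSBO did not pass in edgeR (-0.39, adjusted p = 0.34). Of 400 gene values under 16 alternatives, 367 kept direction and side of the threshold. Another 27 changed direction, and 6 kept direction and passed the threshold. None of these genes was called in the main edgeR fit, so a value could cross the threshold only towards a call.

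Shares of counts moved with their definition. Of gene counts alone members took 0.305% in the wild type. Without petB they took 0.202% and 0.234% of all counts and 24.5% and 25.9% of plastid counts, in wild type and mutant. With 1 library left out the shares of all counts ran from 0.270% to 0.282% in the wild type and from 0.311% to 0.380% in the mutant, and those of plastid counts from 29.4% to 32.6% and from 32.7% to 33.9%. The planned counts of nuclear partners were not run, since no product names were at hand. The low counts of atpE and psaJ limited their test.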
